A study of Homo sapiens with 10 samples.

Results

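The genes described here encode the chains of the MHC class II molecules HLA-DR, HLA-DQ and HLA-DP. They were chosen by name, as the gene identifiers that map to HLA-DRA, HLA-DRB1, HLA-DRB5, HLA-DQA1, HLA-DQA2, HLA-DQB1, HLA-DQB2, HLA-DPA1 and HLA-DPB1, and the rule uses no measured value. They are 9 of the 21174 gene identifiers in the count table, and all 9 passed the filter on low counts. RNA was sequenced from U2932, an established cell line grown from a human diffuse large B cell lymphoma, a tumour that arises from mature B lymphocytes. The wild-type group held 5 libraries of clones labelled CREBBP+/+ (WT_1 to WT_5). The other group held 5 libraries of clones labelled CREBBP+/- (Het_6 to Het_10, named by their columns). CREBBP encodes a histone acetyltransferase that coactivates transcription. Both groups share the same parental line and culture medium. The sources used here do not state how the CREBBP allele was altered or how the clones were derived. Since no label describes the libraries as separate cultures, each p-value reflects the spread among these 10 libraries, which may be technical.

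Class II molecules sit on the surface of B cells and other antigen-presenting cells, where they show peptides from the endosomal route to CD4+ T cells. Each molecule pairs an alpha chain with a beta chain of the same isotype, and the invariant chain CD74 holds the pair until HLA-DM loads a peptide. Transcription of the chain genes depends on the coactivator CIITA, which is recruited by factors bound to a conserved upstream module that includes the X box and the Y box, and CIITA in turn works with acetyltransferases such as CREBBP. HLA-DRA pairs with the DRB chains, and HLA-DRB5 is carried by some haplotypes only. HLA-DQA2 and HLA-DQB2 are little polymorphic paralogues of HLA-DQA1 and HLA-DQB1.

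Total counts ranged from 10615977 in Het_9 to 23020694 in Het_6. CREBBP lay between 103 and 136 CPM (counts per 1e+06 counts of the library, scaled by TMM factors throughout) in the wild-type group and between 56.8 and 80.7 CPM in the CREBBP+/- group, without overlap. The B cell markers MS4A1, CD79A and PAX5 averaged 1110.2, 456 and 539.6 CPM in the wild-type group. They averaged 1265, 509.7 and 545 CPM in the CREBBP+/- group. CD22 was also higher on average in the CREBBP+/- group (317.84 CPM, against 251.97 CPM in the wild-type group). CD79B went the other way (289.54 CPM, against 320.32 CPM in the wild-type group). Summed plasma cell markers ranged from 105 to 169 CPM in the wild-type group and from 85.6 to 138 CPM in the CREBBP+/- group, and summed fibroblast and endothelial markers reached 0.938 and 2.57 CPM. Single plasma cell markers varied more than their sum. Over the 10 libraries PRDM1 ranged from 1.79 to 66.6 CPM, SDC1 from 0.308 to 17.5 CPM and XBP1 from 80.4 to 149 CPM. The part of these markers in the results was not tested. The summed dendritic cell markers reached 4.31 CPM in the wild-type group and 1.71 CPM in the CREBBP+/- group, and the summed monocyte and macrophage markers reached 1.47 CPM in each group. The T cell markers summed to at most 1.30 CPM and the NK cell markers to at most 0.0616 CPM, and CD3D, CD2, NKG7, NCR1 and ITGAX were at 0 in all 10 libraries. Libraries were divided into 3 clusters, a number that was set and not found, by genes other than CREBBP and the class II genes. WT_1, WT_2 and Het_8 formed 1 cluster, WT_3, WT_4, WT_5, Het_6 and Het_7 another, and Het_9 and Het_10 a cluster with no CREBBP+/+ library.

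The upstream module is shown as background on the promoters of the chain genes. Its part in the levels measured here was not tested. The letters come from the RefSeq promoter table of GRCh38.p14, which covers 250 bases before to 50 bases after each start. Of the 9 genes 8 had an entry, and HLA-DRA had none. Windows of 75 bases are printed in the direction of each gene. Capitals mark ATTGG, the core of the Y box, and, where it was found, ACNGATG, part of the X box.
HLA-DRB1, chr6:32589880-32589954, minus strand: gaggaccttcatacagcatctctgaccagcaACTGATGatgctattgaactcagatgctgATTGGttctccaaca
HLA-DRB5, chr6:32530363-32530437, minus strand: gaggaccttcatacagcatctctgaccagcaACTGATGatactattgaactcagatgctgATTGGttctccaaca
HLA-DQA1, chr6:32637278-32637352, plus strand: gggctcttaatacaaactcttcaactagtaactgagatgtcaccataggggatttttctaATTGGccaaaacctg
HLA-DQA2, chr6:32741263-32741337, plus strand: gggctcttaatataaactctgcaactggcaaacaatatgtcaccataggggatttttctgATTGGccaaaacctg
HLA-DQB1, chr6:32666731-32666805, minus strand: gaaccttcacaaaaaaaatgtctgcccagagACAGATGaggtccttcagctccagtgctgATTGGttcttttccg
HLA-DQB2, chr6:32763606-32763680, minus strand: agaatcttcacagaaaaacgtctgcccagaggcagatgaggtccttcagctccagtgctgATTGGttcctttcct
HLA-DPB1, chr6:33075831-33075905, plus strand: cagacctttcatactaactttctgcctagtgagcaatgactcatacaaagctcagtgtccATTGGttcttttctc

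The windows were placed on ATTGG, so its presence in the 7 is given by their choice. It was found on the gene strand in 20.3% of the 35116 promoters in the table and on either strand in 34.6%, and ACNGATG on either strand in 7.65%. The pair, with ACNGATG starting 20 to 35 bases before ATTGG, was in 39 promoters (0.111%). HLA-DRB1, HLA-DRB5 and HLA-DQB1 were among these, each with 29 bases between the motif starts, as was HLA-DMA. The pair was not found as spelled in the other windows, and neither motif was found in the entries of HLA-DPA1. The windows of paralogues were compared base by base. HLA-DRB1 and HLA-DRB5 shared 74 of 75 bases (98.7%), HLA-DQA1 and HLA-DQA2 66 bases (88.0%), and HLA-DQB1 and HLA-DQB2 61 bases (81.3%). Between isotypes, HLA-DRB1 shared 45 bases with HLA-DQB1 and 37 with HLA-DPB1. A match is a description of letters and not evidence of a bound site.

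The comparison of CREBBP+/- with CREBBP+/+ libraries asked how far the transcripts of the class II chains differ when 1 CREBBP allele is altered. All 9 chain genes were lower in the CREBBP+/- group. In each of them every CREBBP+/- library lay below every CREBBP+/+ library in TMM-scaled CPM, against 0.594% of the 11961 genes tested. For HLA-DQA1 that depended on the scaling, as given below. The median log2 fold change of the 9 was -1.19, beside -0.011 for all genes tested. Their summed level was 1749 ± 268 CPM in the wild-type group and 798 ± 250.3 CPM in the CREBBP+/- group (SD, n = 5 each). In bulk RNA, fewer cells that express a gene and less RNA per cell cannot be told apart.

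The tests disagreed on the call. With the quasi-likelihood test of edgeR, 0 of the 9 passed an adjusted p of 0.05, and 0% of all genes passed it in that direction. All 9 had an unadjusted edgeR p under 0.05 with a lower level, as had 2.6% of all genes tested. limma-voom also called 0 of 9 (0% of all genes), and DESeq2 called 8 of 9, all but HLA-DQA1, against 0.153% of all genes. The DESeq2 count was 5 without WT_1, WT_4, Het_9 or Het_10 in turn, when HLA-DRB5, HLA-DQA2 and HLA-DPA1 missed the threshold as well. It was 6 without WT_2. Without Het_9 and Het_10 together DESeq2 called 3 of the 5 chain genes to which it gave an adjusted p, and 12 of 4366 genes in all.

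**Figure D1:**
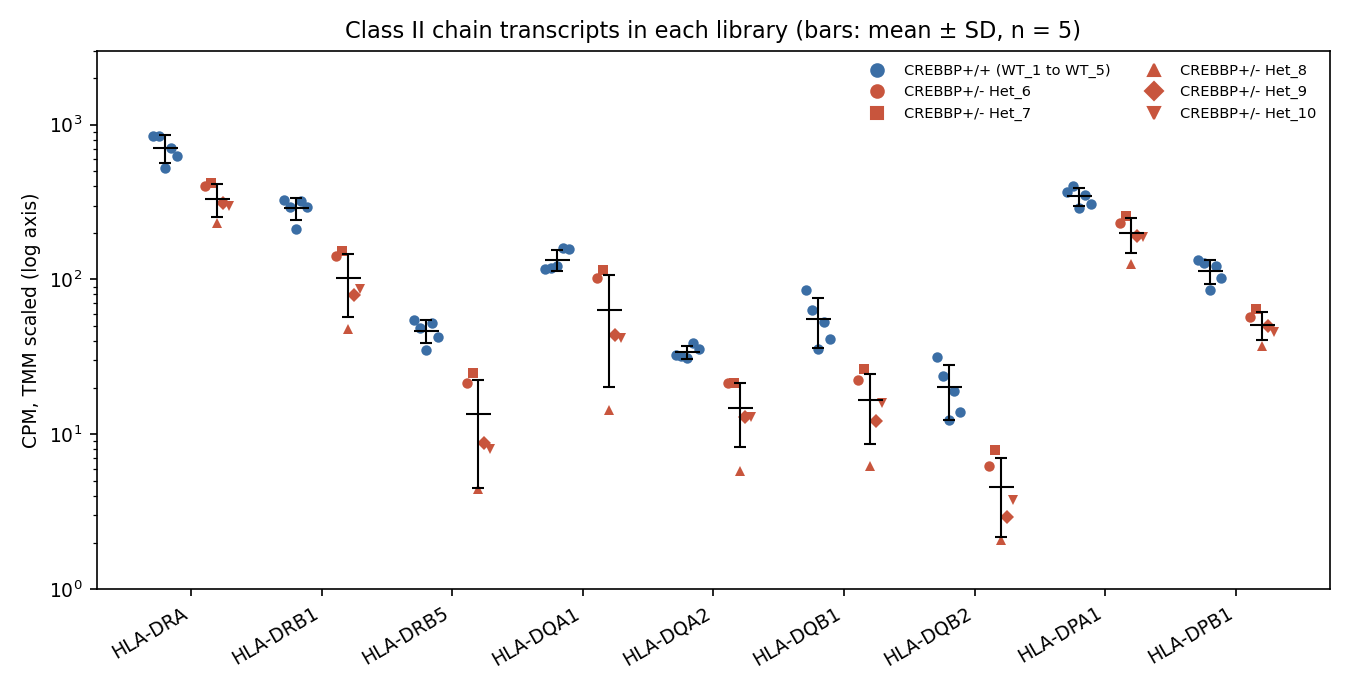
CPM of the 9 chain genes in each library on a log axis, with the CREBBP+/+ libraries in blue and each CREBBP+/- library in red with its own symbol; black bars give the mean ± SD of 5 libraries. In these TMM-scaled CPM, every red symbol lies below every blue symbol of the same gene. The upward triangle (Het_8) is the lowest for all 9 genes.

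HLA-DRA, the alpha chain shared by all DR molecules (chr6:32439878-32445046, plus strand, GRCh38), had the highest level per kilobase of the 9 (given below). It was at 846, 851, 524, 704 and 626 CPM in WT_1 to WT_5 and at 399.9, 422, 232, 311 and 298 CPM in Het_6 to Het_10. The groups did not overlap, and the lowest CREBBP+/+ library exceeded the highest CREBBP+/- library 1.24-fold. Its log2 fold change (CREBBP+/- over CREBBP+/+) was -1.09 ± 0.19 (SE), with an adjusted p of 0.395 in edgeR and 0.000107 in DESeq2.

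HLA-DRB1, the main DR beta chain (chr6:32577902-32589848, minus strand), had a log2 fold change farther from 0 than its alpha partner. It stood at 324, 295, 211, 324 and 295 CPM in WT_1 to WT_5 and at 142, 152, 47.7, 79.9 and 86.5 CPM in Het_6 to Het_10. Het_8 was the lowest by far, at 16.4% of the CREBBP+/+ mean, while Het_6 and Het_7 averaged 50.7% of it. This gave a log2 fold change of -1.51, SE 0.29, with adjusted p 0.436 in edgeR and 0.000264 in DESeq2.

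HLA-DRB5, the second DR beta chain (chr6:32517353-32530287, minus strand), again had Het_7 as the highest and Het_8 as the lowest CREBBP+/- library. Its CPM were 54.5, 48.4, 35.2, 52.4 and 42.5 in WT_1 to WT_5 and 21.5, 24.8, 4.47, 8.82 and 8.06 in Het_6 to Het_10. Het_8 retained 9.58% of the CREBBP+/+ mean, Het_9 and Het_10 together 18.1% and Het_6 and Het_7 49.7%. In log2 terms HLA-DRB5 differed by -1.78 ± 0.42 (SE), at adjusted p 0.755 in edgeR and 0.00901 in DESeq2. HLA-DRB1 and HLA-DRB5 share 102 of their 50-base stretches, 8.69% of those in HLA-DRB1, so reads there could be assigned to either. The sources used here do not state the HLA type of the line, whose alleles may differ from the reference.

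HLA-DQA1, the main DQ alpha chain (chr6:32628179-32647062, plus strand), had the narrowest gap between the groups. It was at 116, 118, 122, 159 and 157 CPM in WT_1 to WT_5 and at 103, 115, 14.4, 43.8 and 41.8 CPM in Het_6 to Het_10. Het_6 and Het_7 lay just under the lowest CREBBP+/+ library, which exceeded Het_7 1.01-fold, and Het_8 was at 10.7% of the CREBBP+/+ mean. Without the TMM factors the groups overlapped, with Het_7 (114.6 CPM) above WT_1 (114.2 CPM) and WT_2 (113.6 CPM). The log2 fold change of HLA-DQA1, -1.08 ± 0.45 (SE), carried an adjusted p of 0.977 in edgeR and 0.514 in DESeq2.

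HLA-DQA2, its paralogue (chr6:32741391-32747198, plus strand), was the most even chain among the CREBBP+/+ libraries. Its CPM were 32.7, 31.8, 31.2, 39.1 and 35.5 in WT_1 to WT_5 and 21.5, 21.4, 5.77, 12.9 and 12.9 in Het_6 to Het_10. Unlike HLA-DQA1, it showed a clear step between the groups, with the lowest CREBBP+/+ library 1.45-fold above the highest CREBBP+/- library. On the log2 scale the difference was -1.19 ± 0.30 (SE), with adjusted p 0.842 in edgeR and 0.0375 in DESeq2.

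HLA-DQB1, the main DQ beta chain (chr6:32659467-32668383, minus strand), varied widely already among the CREBBP+/+ libraries. It was at 85.1, 63.8, 35.4, 52.9 and 41.4 CPM in WT_1 to WT_5 and at 22.5, 26.3, 6.21, 12.2 and 16.0 CPM in Het_6 to Het_10. WT_1 was the highest library for this gene and the lowest CREBBP+/+ library for its partner HLA-DQA1. Between the genotypes HLA-DQB1 differed by -1.74 ± 0.37 (log2, SE), with adjusted p 0.671 in edgeR and 0.00235 in DESeq2.

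HLA-DQB2 (chr6:32756098-32763532, minus strand) had the lowest level per kilobase and the fold change farthest from 0. Its CPM were 31.4, 23.9, 12.4, 19.0 and 13.9 in WT_1 to WT_5 and 6.27, 7.86, 2.07, 2.94 and 3.77 in Het_6 to Het_10, where its counts ranged from 32 to 163. The lowest CREBBP+/+ library stood 1.57-fold above the highest CREBBP+/- library. HLA-DQB2 had a log2 fold change of -2.12 ± 0.39 (SE), with adjusted p 0.399 in edgeR and 0.000107 in DESeq2. The DQ paralogues share 9.64% (HLA-DQA1) and 5.01% (HLA-DQB1) of their 50-base stretches with HLA-DQA2 and HLA-DQB2.

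HLA-DPA1, the DP alpha chain (chr6:33064569-33080775, minus strand), had the log2 fold change closest to 0 of the 9. It was at 367, 402, 289, 349.7 and 309 CPM in WT_1 to WT_5 and at 232, 259, 126, 190.3 and 189 CPM in Het_6 to Het_10. The groups were separated 1.12-fold at their closest. Its log2 difference of -0.79 ± 0.18 (SE) had an adjusted p of 0.690 in edgeR and 0.0210 in DESeq2.

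HLA-DPB1, the DP beta chain (chr6:33075990-33089696, plus strand), had the smallest unadjusted edgeR p of all 11961 genes tested, 2.96e-05. Its CPM were 134, 128, 85.2, 122 and 102 in WT_1 to WT_5 and 57.1, 64.2, 37.2, 49.8 and 46.0 in Het_6 to Het_10. The CREBBP+/- libraries were close to each other, from 32.6% of the CREBBP+/+ mean in Het_8 to 53.1% as the average of Het_6 and Het_7. Its log2 fold change was -1.17 ± 0.17 (SE), at an adjusted p of 0.355 in edgeR and 1.99e-06 in DESeq2. HLA-DPA1 and HLA-DPB1 lie on opposite strands and share 96 exon bases, where reads counted without strand could not be told apart.

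**Figure D2:**
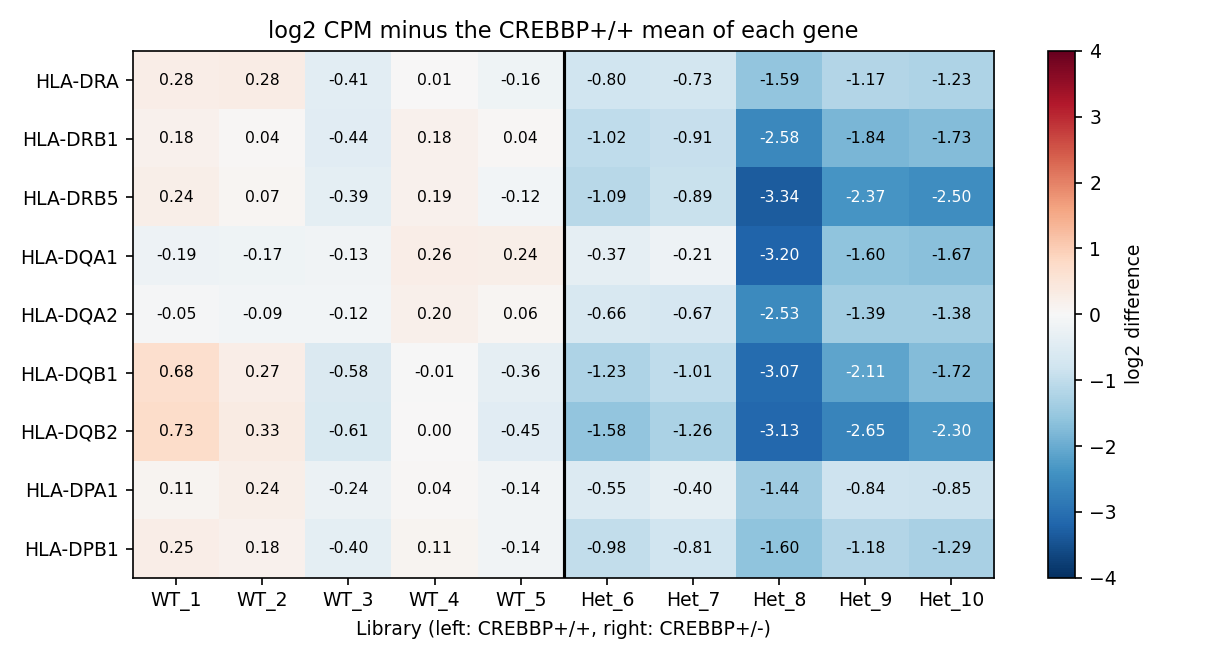
Difference in log2 CPM from the CREBBP+/+ mean of each gene, with the chain genes down the side and the 10 libraries across; blue is lower, red higher. All CREBBP+/- cells are below 0, from -0.21 for HLA-DQA1 in Het_7 to -3.34 for HLA-DRB5 in Het_8.

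The log2 fold changes of the 4 alpha genes ran from -0.79 to -1.19 and those of the 5 beta genes from -1.17 to -2.12. To compare chains within a library, ratios of counts were formed, and 9 ratios were tested by exact permutation of the genotype labels (two-sided, all assignments of 5 and 5 libraries), with adjusted p-values over the 9. The ratio of HLA-DPA1 to HLA-DPB1 was 2.73, 3.14, 3.40, 2.87 and 3.04 in WT_1 to WT_5 and 4.10 in Het_10, 4.06 in Het_6, 4.03 in Het_7, 3.82 in Het_9 and 3.39 in Het_8. The groups overlapped only through WT_3 and Het_8. The log2 ratio rose by 0.35 (exact permutation p = 0.0159, adjusted 0.0476). Leaving out WT_1, WT_2, WT_4, WT_5, Het_9 or Het_10 in turn left the difference between 0.32 and 0.37 but took its adjusted exact permutation p to between 0.0536 and 0.0714.

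The ratio of HLA-DRA to the DRB sum was 2.23, 2.47, 2.13, 1.87 and 1.85 in WT_1 to WT_5. In Het_8 it was 4.45, in Het_9 3.50 and in Het_10 3.15, whereas Het_6 (2.45) and Het_7 (2.38) lay within the CREBBP+/+ range. The log2 difference was 0.56 (exact permutation p = 0.0238, adjusted 0.0536). With HLA-DRB1 as the sole beta gene the difference was 0.51 at the same exact permutation p of 0.0238. Without Het_6 it was 0.65 and without Het_7 0.66, with adjusted exact permutation p of 0.0357 and 0.0286.

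The DQ ratio was the most variable in the CREBBP+/+ group. DQ alpha over DQ beta was 1.28 in WT_1 and 1.71 in WT_2, and 3.20, 2.76 and 3.48 in WT_3 to WT_5. In the CREBBP+/- libraries it ran from 2.43 in Het_8 to 4.32 in Het_6, and the log2 difference of 0.54 did not pass the test (exact permutation p = 0.143, adjusted 0.184). Without WT_1 it was 0.32. WT_1 and WT_2 share a cluster with Het_8, and the ratio was low in all 3 of these libraries. Within that cluster the log2 difference was 0.72 (1 CREBBP+/- against 2 CREBBP+/+ libraries), and within the cluster of 5 it was 0.41 (2 against 3). For DRA over DRB these within-cluster values were 0.92 and 0.31, and for HLA-DPA1 over HLA-DPB1 0.21 and 0.39. All 3 alpha to beta ratios were therefore higher in CREBBP+/- libraries within each of these clusters, with too few libraries for a test.

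**Figure D3:**
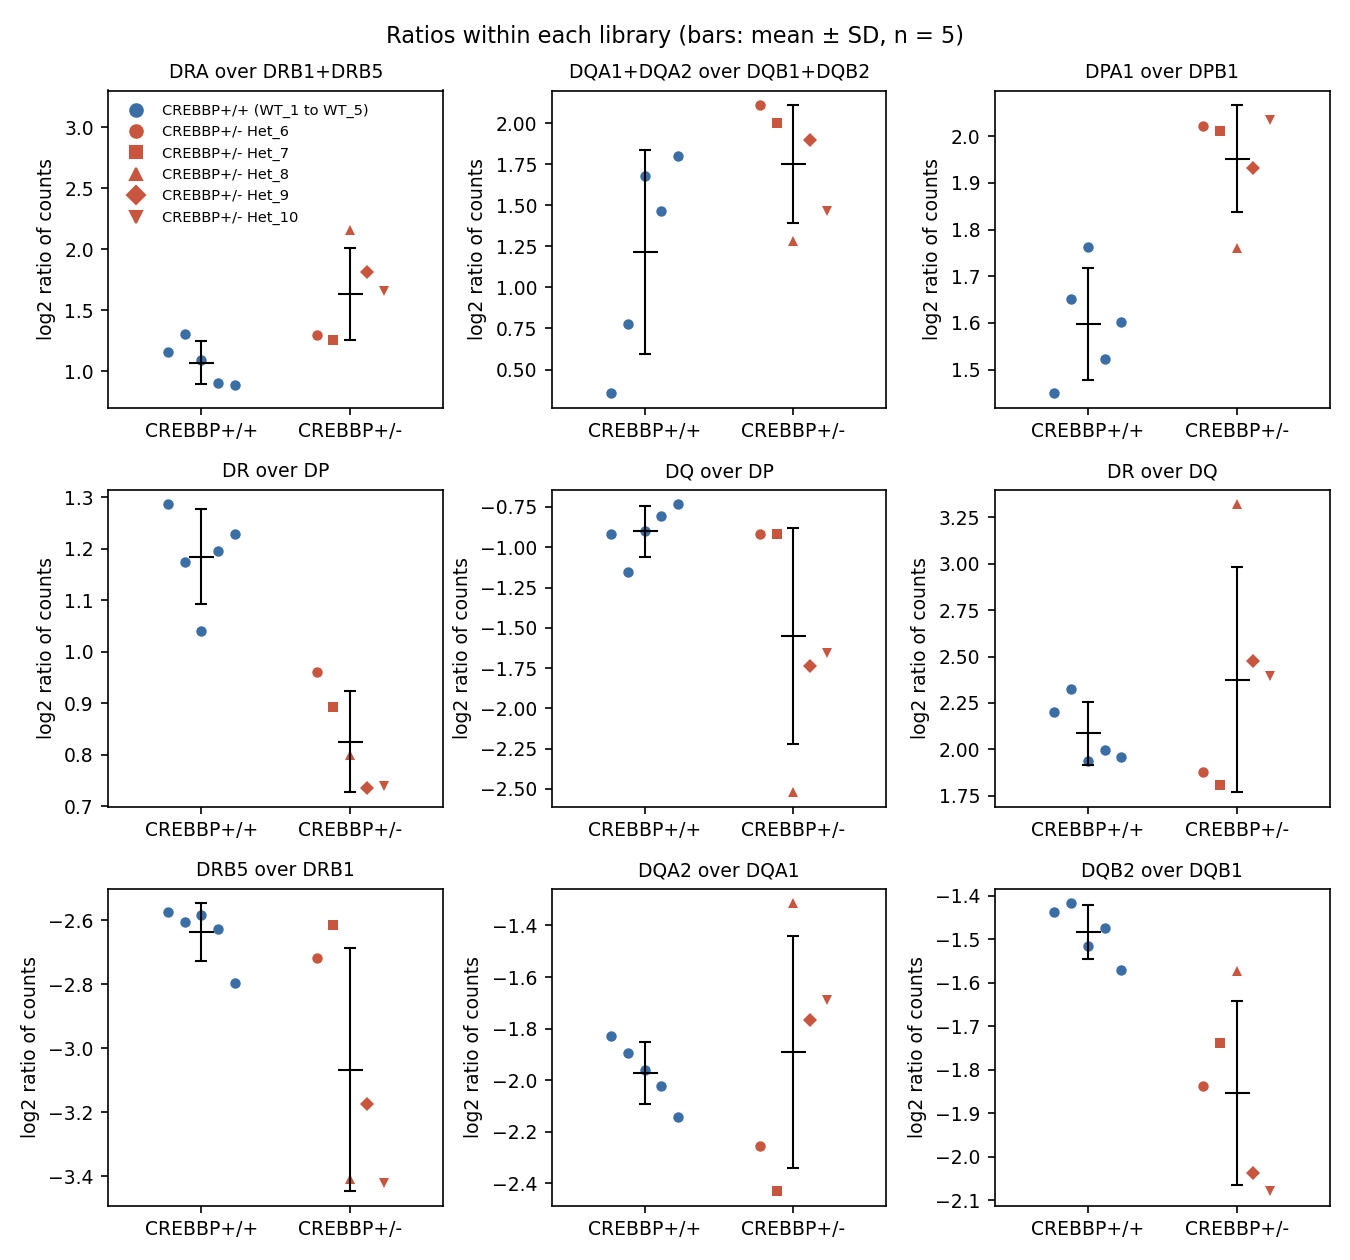
Log2 ratios of counts within each library, 1 panel per ratio, with CREBBP+/+ libraries in blue, CREBBP+/- libraries in red by symbol, and black bars for the mean ± SD of 5 libraries. The groups do not overlap for DR over DP or for HLA-DQB2 over HLA-DQB1; for DQ over DP and HLA-DRB5 over HLA-DRB1, Het_6 and Het_7 lie in the CREBBP+/+ range and the other CREBBP+/- libraries below it.

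The balance of the isotypes moved away from DR relative to DP. Summed DR transcripts went from 1046 ± 186 CPM in the wild-type libraries to 448 ± 131 CPM in CREBBP+/- libraries (2.39-fold lower by the means of log2 values). DP transcripts were at 458 ± 63.9 and 250.1 ± 60.7 CPM (1.86-fold lower), and DQ transcripts at 244 ± 27.8 and 99.8 ± 60.0 CPM (2.92-fold lower). Values are mean ± SD, n = 5 each. The size of the fall differed between clusters. Within the cluster of Het_8 the log2 differences were -2.09 for DR, -3.14 for DQ and -1.66 for DP (1 CREBBP+/- against 2 CREBBP+/+ libraries). Within the cluster of Het_6 and Het_7 they were -0.68, -0.56 and -0.45 (2 against 3), where DR fell most. The count ratio of DR to DP was 2.44, 2.26, 2.06, 2.29 and 2.34 in WT_1 to WT_5 and 1.95, 1.86, 1.74, 1.66 and 1.67 in Het_6 to Het_10. The groups did not overlap, and the log2 ratio fell by 0.36 (exact permutation p = 0.00794, the smallest that 5 against 5 can give, adjusted 0.0357). Within the clusters the log2 difference was -0.43 and -0.23. It kept its sign without any 1 library, but the adjusted exact permutation p lay between 0.0536 and 0.0714 without WT_1, WT_2, WT_4 or WT_5.

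DQ separated the CREBBP+/- libraries from each other. Against the geometric mean of the CREBBP+/+ libraries, DQ stood at 63.0% in Het_6 and 70.3% in Het_7, but at 29.6% in Het_9, 30.7% in Het_10 and 11.7% in Het_8. DP in the same order stood at 63.7%, 71.1%, 52.9%, 51.7% and 36.0%, and DR at 54.5%, 58.1%, 38.7%, 38.0% and 27.6%. In Het_6 and Het_7, DQ was thus close to DP and above DR, while in the other 3 libraries it was the lowest of the isotypes. The log2 ratio of DQ to DP differed by -0.65 (exact permutation p = 0.0556, adjusted 0.0952), by -0.81 without Het_6 or without Het_7 (adjusted exact permutation p = 0.0357 and 0.0286), by -0.41 without Het_8, by -1.48 within the cluster of Het_8 and by -0.11 within the cluster of Het_6 and Het_7. The ratio of DR to DQ differed by 0.29 on the log2 scale (exact permutation p = 0.373, adjusted 0.420), by 0.054 without Het_8, and by -0.12 within the cluster of Het_6 and Het_7.

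**Figure D4:**
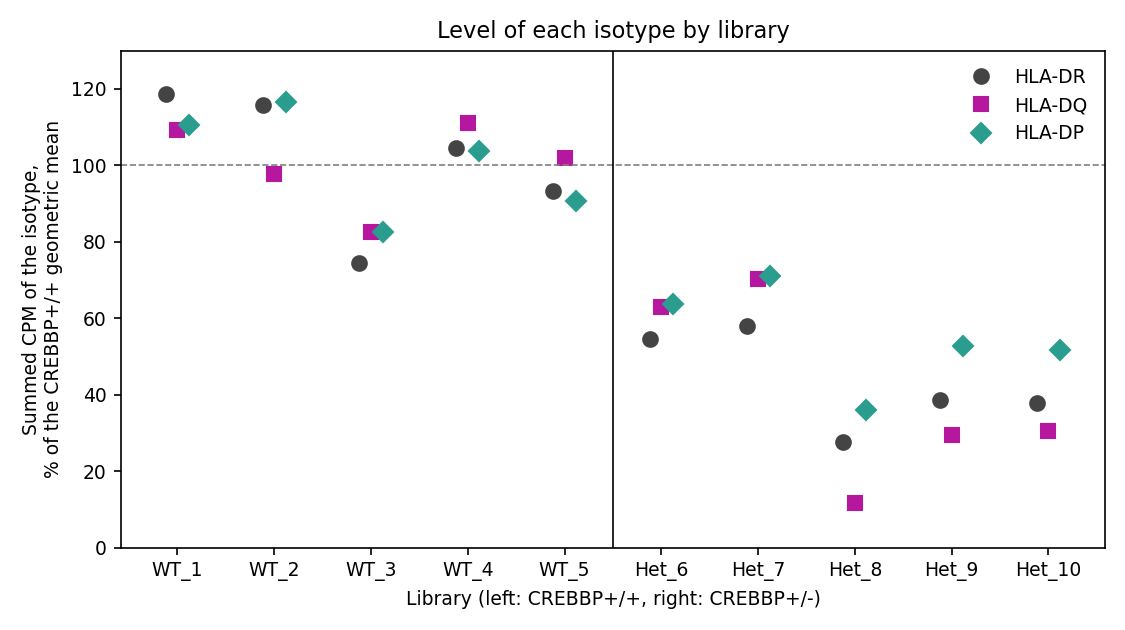
Summed CPM of the DR, DQ and DP chain genes in each library, as a percentage of the geometric mean of the 5 CREBBP+/+ libraries (dashed line at 100%). DQ lies close to DP in Het_6 and Het_7 and under DR and DP in Het_8, Het_9 and Het_10.

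Per kilobase of exon, DR made up 82.7% of the class II chain level in CREBBP+/+ and 82.0% in CREBBP+/- libraries, DQ 7.66% and 6.18%, and DP 9.69% and 11.8%. The shares depend on the length assigned to each gene. With the canonical transcript they were 68.3% and 65.6% for DR, 13.0% and 10.7% for DQ, and 18.7% and 23.7% for DP. With coding length DP took 26.8% and 32.3%. The DP share was thus higher in CREBBP+/- libraries under the 3 lengths, by 2.09, 5.03 and 5.57 percentage points. By CPM per kilobase HLA-DRA ranked first (571 ± 114 in CREBBP+/+ and 267 ± 62.7 in CREBBP+/- libraries by exon length) and HLA-DQB2 last (9.93 ± 3.84 and 2.26 ± 1.19) under all 3 lengths, and the ranks between them changed with the length used.

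The ratios between paralogues were compared in the same way. HLA-DQB2 over HLA-DQB1 was 0.370, 0.375, 0.350, 0.360 and 0.337 in WT_1 to WT_5 and 0.280, 0.300, 0.336, 0.243 and 0.237 in Het_6 to Het_10. WT_5 and Het_8 almost touched, and the log2 ratio fell by 0.37 (exact permutation p = 0.00794, adjusted 0.0357). Its adjusted exact permutation p was between 0.0536 and 0.0714 without WT_1, WT_2, WT_4 or WT_5. Without Het_9 and Het_10 the log2 difference was -0.23, at an adjusted exact permutation p of 0.0804. HLA-DRB5 over HLA-DRB1 was 0.152 in Het_6 and 0.163 in Het_7, within the CREBBP+/+ range of 0.144 to 0.168, and 0.0935 in Het_10, 0.0942 in Het_8 and 0.111 in Het_9. That log2 difference of -0.43 did not pass (exact permutation p = 0.0635, adjusted 0.0952), and it was -0.82 and 0.0018 within the 2 clusters with both genotypes. It passed without Het_6 (-0.52) and without Het_7 (-0.54), at adjusted exact permutation p of 0.0357 and 0.0286, and was -0.28 without Het_9 and Het_10. HLA-DQA2 over HLA-DQA1 differed by 0.080 (exact permutation p = 0.730, adjusted 0.730), and its sign turned without Het_8 (-0.065).

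On the log2 scale, the CREBBP+/- libraries were more spread than the CREBBP+/+ libraries for all 9 genes, to unequal degrees. In CPM, the SD was smaller in the CREBBP+/- group for HLA-DRA, HLA-DRB1, HLA-DQB1, HLA-DQB2 and HLA-DPB1, and larger for the other chain genes. For HLA-DQA1 the SD of log2 CPM was 0.23 in CREBBP+/+ and 1.21 in CREBBP+/- libraries, and the highest CREBBP+/- library exceeded the lowest 8.02-fold. This SD was larger than that of 96.3% of all genes tested in the CREBBP+/- group. HLA-DRB5 had SDs of 0.26 and 1.03 and a range of 5.56-fold. HLA-DPB1 and HLA-DRA were the evenest, with SDs of 0.27 and 0.30 for HLA-DPB1 and 0.30 and 0.35 for HLA-DRA, and ranges of 1.73-fold and 1.82-fold in the CREBBP+/- libraries. The median SD over all genes tested was 0.27 in CREBBP+/+ and 0.25 in CREBBP+/- libraries. Het_8 was the lowest library for all 9 genes, and the CREBBP+/- spread among Het_6, Het_7 and Het_8 alone was larger than over all 5, for example 1.68 for HLA-DQA1. The difference in spread was not tested.

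After the group means were taken out, chain genes differed in how closely they followed each other over the 10 libraries. Pearson's r was 0.99 between HLA-DQA1 and HLA-DQA2, 0.98 between HLA-DRA and HLA-DPB1, and 0.97 both between HLA-DRB1 and HLA-DRB5 and between HLA-DQB1 and HLA-DQB2. HLA-DQA1 correlated at 0.71 with HLA-DRA and at 0.78 with its own partner HLA-DQB1. HLA-DRA thus followed HLA-DPB1, of another isotype, more closely than its partner HLA-DRB1 (0.89). These values describe 10 libraries that share depth and cluster, and they carry no test.

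The other tested genes between HLA-DRA and HLA-DPB1 on chromosome 6 all lay closer to 0 than any of the 9 chain genes. Of 12 such genes 11 were tested, 10 had a log2 fold change below 0 (52.4% of all genes tested), and their median was -0.21. edgeR called 0 of 11 after adjustment (0% of all genes). It gave 4 an unadjusted p under 0.05, all lower, against 2.6% of all genes. DESeq2 called 1 lower, against 0.153% of all genes. HLA-DMA and HLA-DMB, the chains of the peptide-loading molecule HLA-DM, had log2 fold changes of -0.63 ± 0.15 and -0.69 ± 0.17 (SE), and HLA-DOA, a chain of its inhibitor HLA-DO, -0.58 ± 0.15. ENSG00000248993, a gene annotated without a symbol, was at -0.70 ± 0.19. It is not a separate neighbour, since its span (32937364-32953122) overlaps HLA-DMB (32934629-32941028) and HLA-DMA (32948613-32969094). The counts above include it all the same. Spans of some other genes among the 11 overlap as well, so the counts hold fewer separate loci than genes. The edgeR adjusted p-values of HLA-DMA, HLA-DMB, HLA-DOA and ENSG00000248993 were 0.716, 0.842, 0.842 and 0.842. DESeq2 called HLA-DMA (adjusted p 0.0362). The peptide transporter gene TAP1, which lies between the DQ and DP genes, was at -0.15 ± 0.07 (edgeR adjusted p 0.984).

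**Figure D5:**
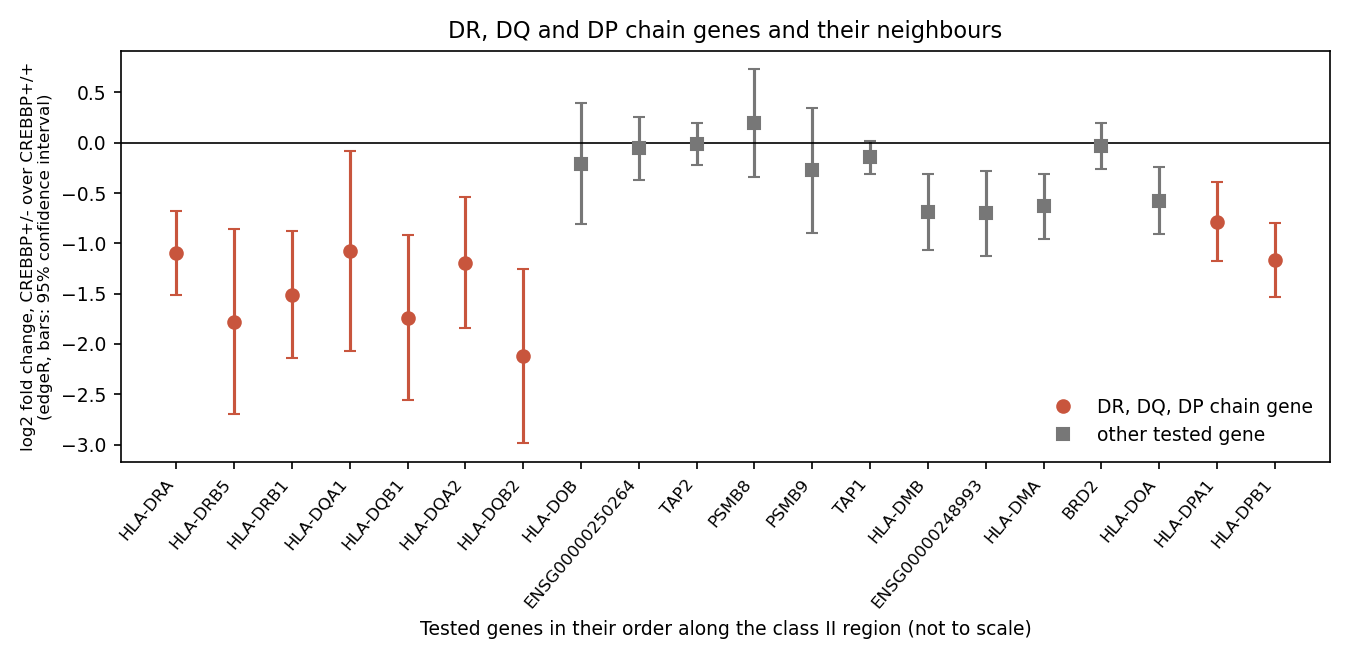
Log2 fold change (CREBBP+/- over CREBBP+/+, edgeR) of the 20 tested genes in their order along the class II region, with 95% confidence intervals; red circles are DR, DQ and DP chain genes and grey squares other genes. The 9 chain genes lie between -0.79 and -2.12 on both sides of a stretch of neighbours that lie between -0.70 and 0.19.

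Among 18 tested genes of the class II pathway, 13 were below 0, beside 52.4% of all genes tested, with a median of -0.16. edgeR called 0 after adjustment (0% of all genes). It gave 5 an unadjusted p under 0.05, all lower, against 2.6% of all genes. HLA-DMA, HLA-DMB and HLA-DOA are among the 5 and were also counted in the region above. DESeq2 called 3 lower, against 0.153% of all genes. CIITA was at 247, 191, 136, 157 and 167 CPM in WT_1 to WT_5 and at 105, 110.1, 85.8, 71.1 and 84.7 CPM in Het_6 to Het_10, a log2 difference of -0.98 ± 0.17 (SE), with adjusted p 0.395 in edgeR and 0.000299 in DESeq2. Het_8 was lowest for the chains but not for CIITA, where Het_9 and Het_10 were lower. CD74 was at 2162, 2091, 1994.5, 2514 and 2601 CPM in WT_1 to WT_5 and at 1504, 1599.5, 873, 1407.5 and 1453 CPM in Het_6 to Het_10, with Het_8 again the lowest (log2 difference -0.73 ± 0.16, SE, with adjusted p 0.671 in edgeR and 0.00901 in DESeq2). HLA-DMA in Het_6 to Het_10 ranged only from 84.0 to 94.1 CPM and did not follow the low level of the chains in Het_8 (86.0 CPM). HLA-DMB was lowest in Het_7 (57.1 CPM, against 61.9 CPM in Het_8). HLA-DOA did have its lowest level in Het_8, 36.2 CPM against 48.2 to 50.6 CPM in the other CREBBP+/- libraries. CREBBP too was lowest in Het_8 (56.8 CPM). The reason for the low levels in Het_8 was not tested.

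For class I presentation, 18 of 18 listed genes were tested and 17 were below 0, beside 52.4% of all genes tested, with a median of -0.17. edgeR called 0 of 18 after adjustment and 1 of 18 at an unadjusted p under 0.05, against 2.6% of all genes, and DESeq2 called 0. A single gene is too few to be set apart from that share. The 4 with the smallest p were HLA-E (-0.46 ± 0.21, SE), the immunoproteasome gene PSMB10 (-0.32 ± 0.14), TAP1 and HLA-F (-0.35 ± 0.21), with edgeR adjusted p-values from 0.977 to 0.988. Among the CREBBP+/- libraries, all 4 were lowest in Het_8, at 30.8, 30.6, 59.5 and 4.03 CPM in the order named.

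Over the 10 libraries, the genes whose log2 CPM followed the summed chain level most closely were TCTN1 (Pearson's r 0.95), TUBB (0.94), MTMR14 (0.93), CD74 (0.93) and TPP1 (0.92), out of 11493 genes with at least 1 CPM. With group means taken out they were IMMP2L (0.93), TCTN1 (0.92), ENSG00000228144 (0.92), C1D (0.91) and TIMELESS (0.90). Of these, TCTN1 stood at 5.74 ± 0.300 CPM in the wild-type group against 4.49 ± 0.813 CPM in the CREBBP+/- group (SD, n = 5 each). These are the extremes of many genes over 10 libraries and describe likeness only.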

How the data were processed

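The authors deposited whole-number read counts per Ensembl gene, 1 column per library, with counts of 10000 or more rounded to 4 significant digits. Per the submitters' processing notes, the tools were FastQC, STAR, featureCounts and DESeq2 and the build GRCh38. Versions, counting options, annotation and use of strand: not given in the sources used here. Of 21174 identifiers 20804 (98.3%) were matched to a symbol. Coordinates and lengths come from GENCODE on GRCh38. Columns Het_6 to Het_10 match no labelled clone by number and were used by group only.

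Counts were compared with edgeR 4.0.16 (TMM, filterByExpr with minimum count 10 and total 15, which removed 9213 genes, robust quasi-likelihood F-test, two-sided, Benjamini-Hochberg over 11961 genes) in R 4.3.3. DESeq2 1.42.0, limma-voom (limma 3.58.1), other scalings and filters, and left-out libraries were alternatives. The scripts were tested on simulated data. Log2 CPM used a prior count of 2, and ratios had 0.5 counts added to each sum. Clusters used the 1000 most variable genes, and their number was set to 3. The members were picked by name, and they, the lists and the tests were chosen with earlier results of these data known. Named besides the 9 members are CREBBP, CIITA, CD74, the 4 genes with the smallest edgeR p of each list, and the 5 genes most like the summed chain level by each measure. Further genes were named after their values were seen only as markers or partners. The result of 1 marker gene, and the marker sum that holds it, are not reported here.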

Additional observations from a re-analysis of the deposited data

Results flagged for a closer look

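In 42 groups of 5 values (9 chain genes, isotype sums and ratios in each genotype), 2 had a library far from the other 4 by Dixon's criterion, and chance gives about 1 in 20 groups, or 2.1. In WT_3, HLA-DRB1 was at a log2 CPM of 7.72, against 8.21 in the next library, a gap of 0.782 of the group's range. In WT_5, the log2 ratio of HLA-DRB5 to HLA-DRB1 was -2.80, against -2.63 in the next library, a gap of 0.758 of the range.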

How the results depend on the processing

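The log2 fold change of each of the 9 chain genes was below 0 in all 30 alternatives, from -2.41 for HLA-DQB2 to -0.66 for HLA-DPA1 at the extremes. Calls depended on the test. edgeR called 0 of 9 with all libraries and with any 1 left out. DESeq2 called 8 with all libraries (20 of 13071 genes in all were called lower). It called 7 with the 3 clusters as a covariate (148 of 11538), 3 without Het_9 and Het_10 (12 of 4366), and between 5 and 8 with 1 library left out (10 to 65 genes in all). With 1 library left out, the log2 ratio of HLA-DPA1 to HLA-DPB1 differed by 0.32 to 0.40, DR to DP by -0.40 to -0.33, DRA to DRB by 0.43 to 0.66, DQ to DP by -0.81 to -0.41, DQ alpha to beta by 0.32 to 0.68, DR to DQ by 0.054 to 0.43 and HLA-DQB2 to HLA-DQB1 by -0.44 to -0.31. With 5 counts added, HLA-DPA1 to HLA-DPB1 (0.35), DR to DP (-0.36) and HLA-DQB2 to HLA-DQB1 (-0.31) no longer passed the adjusted threshold. They also missed it without Het_9 and Het_10 (0.33, -0.30 and -0.23), where fewer libraries raise the smallest possible p. Without HLA-DRB5, HLA-DQA2 and HLA-DQB2, DRA to DRB (0.51) passed after adjustment over the 6 ratios that remained, with its unadjusted exact permutation p as before. The ratio HLA-DQA2 to HLA-DQA1 turned to -0.029 without Het_9 and Het_10, and with 1 library left out it ran from -0.065 (without Het_8) to 0.21 (without Het_7). The change in DR share was -2.92 percentage points with coding length and -2.70 with canonical length, and that in DP share 5.57 and 5.03. Depth limited HLA-DQB2 most, with 32 counts in Het_9. No paired analysis was possible because columns Het_6 to Het_10 match no labelled clone by number.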
